A study of Mus musculus with 12 samples.

Results

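The genes described here are 42 genes of the antioxidant, glutathione and xenobiotic defence of the mouse, chosen by name from the 52550 genes of the series. Of these 42 genes, 39 passed the filter on low counts that left 16823 genes for the tests, and the other 3, Gpx2, Gpx7 and Cyp1a1, are given by their levels alone. RNA sequencing was done on D2A1 and D2.OR, 2 mammary tumor cell lines of the mouse that came from separate D2 tumors in different mice. D2.OR is in common use as a model of tumor dormancy, and D2A1 as its proliferating, metastatic counterpart. Each line was grown for a week either on plastic (2D) or on top of Matrigel (3D), a gel of basement membrane proteins made from a mouse tumor. The 4 groups were D2A1 2D, D2A1 3D, D2.OR 2D and D2.OR 3D, with 3 libraries in each and 12 in all, and no other agent or genetic change separated them in the labels. For the sequenced cells the methods refer to the general culture section, in which 2D cells were seeded in DMEM. Horse serum, hydrocortisone, cholera toxin and insulin belong to a 3D medium that is described for the dormancy assay, where the 2D arm had it too. Gel and medium may therefore differ together between the sequenced 2D and 3D cells. RNA of each library came from pooled wells. Each line is a single line, so that the replicates measure the spread between cultures of that line. The study describes its repeats in general as biological, and equates batch with replicate for these libraries.

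Cells keep reactive oxygen and reactive foreign compounds in check with a few linked systems. The transcription factor NRF2, encoded by Nfe2l2, is held and marked for degradation by KEAP1 and, when released by oxidants or electrophiles, switches on genes with an antioxidant response element. Glutathione is built by the glutamate-cysteine ligase and glutathione synthetase, is used by peroxidases to reduce peroxides and by transferases to tag reactive compounds, and is returned to its reduced form by glutathione reductase with NADPH. The aryl hydrocarbon receptor, AhR, is a ligand-activated factor that switches on cytochromes P450 of family CYP1 through the xenobiotic response element. In tumors these systems are known for their part in survival under oxidative stress and in drug resistance.

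The promoters are shown first, because the elements through which NRF2 and AhR are known to act can lie in them. Promoter windows from RefSeq (build GRCm38.p6, 250 bases before to 50 bases after a start) were matched for 36 of the 42 genes, in 45 windows, and were not matched for Gclc, Gsr, Prdx6, Gsta4, Sod3 and Ahr. The core of the antioxidant response element, TGACNNNGC, was searched on both strands and lay in 11 of the 45 windows (24.4%), compared with 12.4% of all 32851 windows of the table. These 11 windows belonged to Nfe2l2, Gclm, Txnrd1, Srxn1, Prdx1, Gsta3, Gstm5, Mgst1, Sod1, G6pdx and Pgd. The window of Nqo1 did not hold this core, and bases outside the windows were not searched. The core of the xenobiotic response element, GCGTG, lay in 26 of the 45 windows (57.8%), those of Cyp1a1 and Cyp1b1 among them, compared with 32.4% of all windows. The AP-1 motif TGANTCA, which an antioxidant element can overlap, lay in 5 windows (11.1%), compared with 7.81% of all windows. The genes were picked by function, so these shares are a description, and a match is not a site that was shown to work.

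Of the regulators and the genes with the largest differences between the cell lines in 2D, 4 held the antioxidant core: Nfe2l2, Gstm5, Sod1 and G6pdx. For the first 3 of these, the bases before the RefSeq start that lie outside the gene as the deposited files bound it are printed 5′ to 3′ on the strand of the gene, with the core in capitals. The stretch has 250 bases for Nfe2l2, 217 for Gstm5 and 230 for Sod1. The core of G6pdx lies inside the gene by these bounds, in an untranslated exon of the GENCODE annotation, and its sequence is not printed. Noncoding genes on the other strand have exons in the stretches of Nfe2l2 and Gstm5. The core lay 240 to 232 bases before the start of Nfe2l2, 42 to 34 before that of Gstm5, 56 to 48 before that of Sod1 and 57 to 49 before that of G6pdx. In Sod1 and G6pdx the core is on the other strand, so that the capitals of Sod1 show its reverse complement. The core of Gstm5 and that of Sod1 read the same 9 bases and overlapped a GCGTG, and none of the 4 cores overlapped an AP-1 motif.
Nfe2l2, chr2:75704664-75704913: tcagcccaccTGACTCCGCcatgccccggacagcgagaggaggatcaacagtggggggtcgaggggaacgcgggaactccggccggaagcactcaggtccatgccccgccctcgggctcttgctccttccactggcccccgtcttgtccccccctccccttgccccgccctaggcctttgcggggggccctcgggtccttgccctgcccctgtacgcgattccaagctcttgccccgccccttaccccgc
Gstm5, chr3:107895604-107895820: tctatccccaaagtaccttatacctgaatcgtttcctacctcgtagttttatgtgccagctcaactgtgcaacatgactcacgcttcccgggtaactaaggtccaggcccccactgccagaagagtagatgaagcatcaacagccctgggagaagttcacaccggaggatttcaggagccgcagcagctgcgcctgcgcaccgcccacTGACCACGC
Sod1, chr16:90220512-90220741: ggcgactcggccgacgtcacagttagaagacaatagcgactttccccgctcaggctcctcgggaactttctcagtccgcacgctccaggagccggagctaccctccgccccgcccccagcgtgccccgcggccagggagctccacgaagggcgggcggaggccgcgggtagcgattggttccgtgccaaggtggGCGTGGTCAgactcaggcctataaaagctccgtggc

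Gene positions are those of the deposited files, on GRCm38. Library totals ranged from 47589611 to 73325069 expected counts, and mitochondrial genes took 1.42% to 2.20% of them. The labels give each replicate a batch, and the batches were sequenced on separate lanes, so that batch and lane cannot be told apart. Values are given in the order of batches 1, 2 and 3. The 7 epithelial markers summed to 1165 to 1716 TPM in D2.OR 2D, 422 to 877 TPM in D2.OR 3D, 205 to 297 TPM in D2A1 2D and 94.0 to 221 TPM in D2A1 3D. Of them, Krt8 stood at 700 to 1022 TPM in D2.OR 2D and at 0.78 to 2.31 TPM in the 6 D2A1 libraries, and Cdh1 at 0.02 to 0.28 TPM in D2A1, whereas Krt18 was present in every library. The 3 mesenchymal markers summed to 4726 to 5899 TPM in D2.OR 2D, 3471 to 6219 TPM in D2.OR 3D, 2886 to 3443 TPM in D2A1 2D and 1593 to 3419 TPM in D2A1 3D, almost all of it Vim and Fn1, whereas Cdh2 was at most 0.14 TPM in any library. Vim was called between the lines in both cultures, and Fn1 in neither (adjusted p = 0.608 in 2D and 0.155 in 3D). The 3 adipocyte markers summed to 9.47 to 176 TPM in D2.OR 3D, 0.24 to 5.81 TPM in D2.OR 2D and at most 0.14 TPM in D2A1. The immune markers summed to 2.36 to 32.2 TPM, almost all of it Cd68, and the endothelial markers to at most 0.42 TPM. Lama1, a laminin gene that the tumor behind Matrigel expresses, was at 0 in all 12 libraries.

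The first comparison asked how the cell lines differed. Levels are in TPM (transcript abundance scaled by length and library total), and can be compared between genes. Differences are log2 fold changes of normalised counts from edgeR, each with its standard error (SE), and a gene is called at a Benjamini-Hochberg adjusted p under 0.05 over all genes tested. In 2D, 25 of the 39 genes were called (64.1%), compared with 49.8% of all genes. In D2.OR 14 of them were higher (25.4% of all genes were) and 11 lower (24.4% of all genes were). Among the called genes, 10 differed at least 2-fold, 8 higher and 2 lower, which is near the share of 24.8% over all genes. In 3D, 27 of the 39 genes were called (69.2%), compared with 53.8% of all genes, with 14 higher (27.7% of all genes) and 13 lower (26.1% of all genes). At least 2-fold differences were found for 16 genes in 3D, 10 higher and 6 lower, compared with 27.4% of all genes. The median log2 fold change of the 39 genes was 0.04 in 2D and -0.10 in 3D, next to -0.003 and 0.001 over all genes, so that the set as a whole was centred near the other genes while its members lay far apart. The cultures share no libraries, but a single fit gave both comparisons, with the batch terms and the estimate of the spread in common. The calls in 2D and 3D are therefore not independent. In this fit 21 genes were called in both, 12 higher and 9 lower in D2.OR in each, compared with 38.3% of all genes called in both (20.3% higher and 17.8% lower). Another 4 were called in 2D only (11.5% of all genes), 6 in 3D only (15.5%) and 8 in neither (34.7%). Of the 39 genes, Gpx3 and Gsta3 passed the filter on low counts through D2.OR alone, so that their line differences are a description. Without them 24 of 37 genes were called in 2D (13 higher and 11 lower, 9 of the 24 at least 2-fold), 25 of 37 in 3D (12 higher and 13 lower, 14 of the 25 at least 2-fold) and 20 in both. In cell cultures, fewer cells that express a gene and less RNA per cell cannot be told apart.

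**Figure D1:**
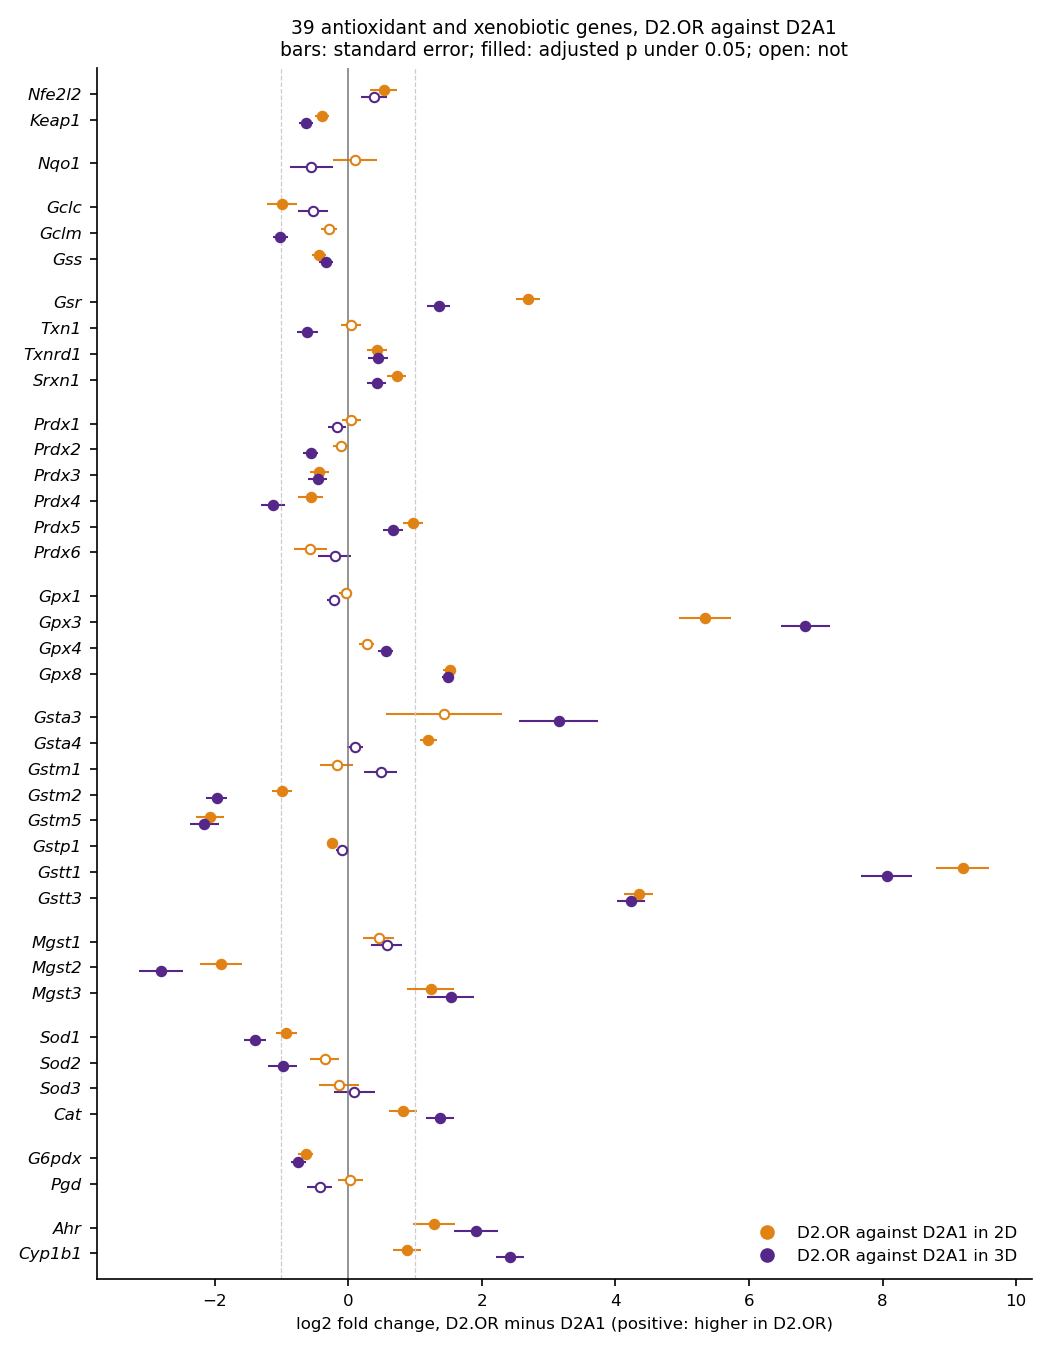
Log2 fold change of D2.OR compared with D2A1 for the 39 genes tested, in 2D (orange) and 3D (purple), grouped by role, with bars for the standard error and dashed lines at a 2-fold difference. Filled points passed an adjusted p of 0.05. Gpx3 and Gsta3 passed the filter on low counts only through D2.OR, and no size or call is read from their points. Of the other genes, Gstt1 and Gstt3 lie farthest to the right in both cultures, and Gstm5, Mgst2 and Gstm2 farthest to the left in 3D.

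How firmly a call stood differed by gene. Of the 24 calls in 2D, 10 held whichever batch or single library was left out (15 fits), those of Gsr, Prdx5, Gpx8, Gsta4, Gstm2, Gstm5, Gstt1, Gstt3, Mgst2 and Sod1. Gpx3, for which this follows from the filter, is left out. Without batch 2 the count in 2D, of all 39 genes, was 12, when 24.9% of all genes were called. Of the 25 calls in 3D, 16 held in all these fits. With Gpx3 and Gsta3 in the count, leaving out batch 2 or batch 3 left 18 and 19, when 31.0% and 35.2% of all genes were called. Line calls that were lost without a batch are marked as such beside the gene, and no fold change of a called gene changed sign under any alternative.

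Nfe2l2, Keap1 and Nqo1 showed small or variable differences between the lines. Nfe2l2 (ENSMUSG00000015839.6, chr2:75675513-75704641, minus strand) had 63.7, 128 and 92.4 TPM in D2A1 2D, 68.7, 86.1 and 88.0 TPM in D2A1 3D, 125, 124 and 114 TPM in D2.OR 2D and 117, 98.5 and 103 TPM in D2.OR 3D. Batch 1 of D2A1 2D was low and batch 2 of D2A1 2D was the highest of all 12 libraries, so the 2D groups overlapped. The log2 fold change was 0.53 (SE 0.20, adjusted p = 0.049) in 2D and 0.39 (SE 0.20, adjusted p = 0.119) in 3D, and the 2D call was lost in 18 of 25 alternative fits, with a log2 fold change of 0.26 without batch 1 (adjusted p = 0.145) and 0.58 without batch 3 (adjusted p = 0.175). Keap1 (ENSMUSG00000003308.15, chr9:21229730-21239361, minus strand), the sensor that holds NRF2, had 88.3, 66.1 and 74.8 TPM in D2A1 2D, 93.2, 84.4 and 79.3 TPM in D2A1 3D, 51.1, 50.6 and 56.4 TPM in D2.OR 2D and 58.5, 57.2 and 53.4 TPM in D2.OR 3D. All 6 D2.OR libraries were below all 6 D2A1 libraries, with a log2 fold change of -0.39 (SE 0.10, adjusted p = 0.0123) in 2D and -0.63 (SE 0.10, adjusted p = 0.000864) in 3D. The 2D call of Keap1 was lost when any of the batches was left out (adjusted p = 0.0538 without batch 1, 0.0737 without batch 2 and 0.0565 without batch 3), whereas the 3D call held. Nqo1 (ENSMUSG00000003849.8, chr8:107388225-107403206, minus strand), a quinone reductase and one of the best known NRF2 targets, had 31.9, 33.3 and 56.6 TPM in D2A1 2D, 99.5, 92.0 and 136 TPM in D2A1 3D, 66.7, 24.5 and 30.9 TPM in D2.OR 2D and 92.4, 49.5 and 96.2 TPM in D2.OR 3D. The line groups overlapped in both cultures, and neither difference passed the test, at 0.11 (SE 0.33, adjusted p = 0.806) in 2D and -0.55 (SE 0.32, adjusted p = 0.174) in 3D.

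**Figure D2:**
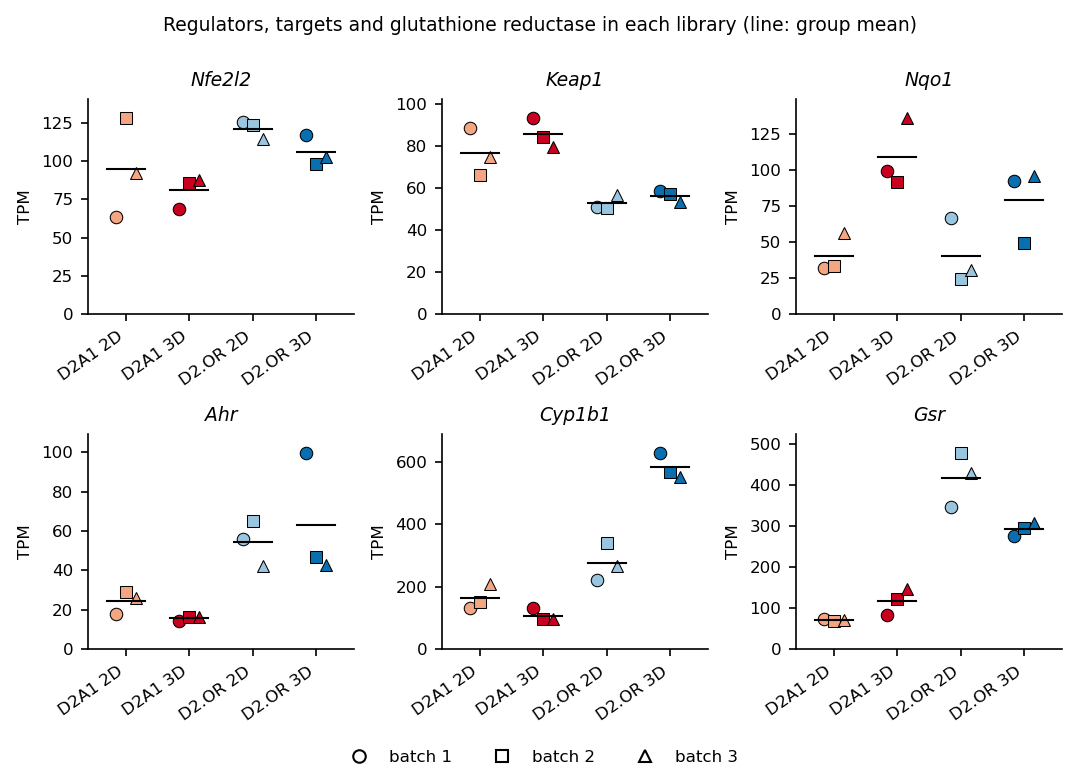
TPM of Nfe2l2, Keap1, Nqo1, Ahr, Cyp1b1 and Gsr in each of the 12 libraries, on linear axes from 0, with a line at each group mean and a symbol for each batch. Ahr, Cyp1b1 and Gsr are higher in every D2.OR library than in every D2A1 library of the same culture, and Keap1 is lower, while Nqo1 overlaps between the lines.

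Genes of glutathione synthesis were lower in D2.OR where they were called, and glutathione reductase was far higher. Gclc (ENSMUSG00000032350.9, chr9:77754535-77794485, plus strand), the catalytic subunit of the glutamate-cysteine ligase, had 46.8, 101 and 130.0 TPM in D2A1 2D, 74.3, 66.6 and 74.4 TPM in D2A1 3D, 35.5, 39.6 and 45.9 TPM in D2.OR 2D and 38.8, 57.6 and 61.4 TPM in D2.OR 3D. Batch 1 of D2A1 2D was the lowest of its group, but all D2.OR 2D libraries were below it. The log2 fold change was -0.99 (SE 0.23, adjusted p = 0.00605) in 2D, a call lost without batch 2 (adjusted p = 0.102) or batch 3 (adjusted p = 0.0875), and -0.53 (SE 0.22, adjusted p = 0.0715) in 3D. Gclm (ENSMUSG00000028124.15, chr3:122245557-122270732, plus strand), the modifier subunit, had 128, 68.9 and 116 TPM in D2A1 2D, 215, 187 and 253 TPM in D2A1 3D, 80.0, 62.9 and 79.9 TPM in D2.OR 2D and 112, 98.6 and 101 TPM in D2.OR 3D. In 2D the groups overlapped, with -0.29 (SE 0.12, adjusted p = 0.063), and in 3D they were apart, with -1.01 (SE 0.12, adjusted p = 0.00012). Gss, glutathione synthetase, was lower in D2.OR, with a log2 fold change of -0.43 (SE 0.10, adjusted p = 0.0073) in 2D and -0.33 (SE 0.10, adjusted p = 0.0236) in 3D. The 2D call of Gss was lost without batch 2 (adjusted p = 0.109) and the 3D call without any 1 of the batches (adjusted p = 0.0934, 0.0874 and 0.126 without batches 1, 2 and 3). Across these 3 genes, 2 were lower in 2D and 2 in 3D, and none was higher.

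Gsr (ENSMUSG00000031584.16, chr8:33652523-33698163, plus strand), glutathione reductase, had 73.5, 67.8 and 69.7 TPM in D2A1 2D, 83.2, 122 and 145 TPM in D2A1 3D, 347, 477 and 428 TPM in D2.OR 2D and 275, 294 and 307 TPM in D2.OR 3D. The lowest D2.OR library lay above the highest D2A1 library by a wide margin in both cultures. Gsr differed by a log2 fold change of 2.69 (SE 0.18, adjusted p = 6.6e-06) in 2D and 1.35 (SE 0.18, adjusted p = 0.000254) in 3D. The other genes of the reducing systems moved less. Txnrd1, thioredoxin reductase, was higher in D2.OR by 0.43 (SE 0.15, adjusted p = 0.0406) in 2D and 0.44 (SE 0.15, adjusted p = 0.033) in 3D, with overlapping TPM groups in both, and each call was lost without batch 2 (adjusted p = 0.298 and 0.240) or batch 3 (adjusted p = 0.258 and 0.109). Srxn1, sulfiredoxin, which repairs over-oxidised peroxiredoxins, was higher by 0.73 (SE 0.14, adjusted p = 0.00251) in 2D and 0.43 (SE 0.14, adjusted p = 0.029) in 3D, and was not called without batch 2 (adjusted p = 0.0620 in 2D and 0.166 in 3D) or, in 3D, without batch 3 (adjusted p = 0.218). Txn1 (ENSMUSG00000028367.5, chr4:57943373-57956411, minus strand), thioredoxin, was among the most abundant members, with 521, 384 and 419 TPM in D2A1 2D, 614, 652 and 741 TPM in D2A1 3D, 394, 409 and 443 TPM in D2.OR 2D and 389, 459.5 and 499 TPM in D2.OR 3D. It overlapped between the lines in 2D and was lower in every D2.OR library in 3D, with log2 fold changes of 0.04 (SE 0.15, adjusted p = 0.838) and -0.61 (SE 0.15, adjusted p = 0.0085). The 3D call of Txn1 was lost without batch 2 (adjusted p = 0.0697) or batch 3 (adjusted p = 0.0634).

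The 6 peroxiredoxins, which reduce peroxides, most of them with thioredoxin and Prdx6 with glutathione, differed in direction. They summed to 2146 to 2170 TPM in D2A1 2D and 1932 to 2163 TPM in D2.OR 2D, which overlap, and to 2307 to 2678 TPM in D2A1 3D and 2039 to 2304 TPM in D2.OR 3D, where each D2.OR library was lower. Prdx5 was higher in D2.OR and Prdx4 lower. Prdx5 ranged from 156 to 299 TPM in D2A1 and from 342 to 555 TPM in D2.OR, with a log2 fold change of 0.98 (SE 0.15, adjusted p = 0.000674) in 2D and 0.68 (SE 0.15, adjusted p = 0.00437) in 3D, the latter lost without batch 3 (adjusted p = 0.0602). Prdx4 (ENSMUSG00000025289.15, chrX:155323918-155340754, minus strand), the peroxiredoxin of the endoplasmic reticulum, had 260.1, 210.0 and 213 TPM in D2A1 2D, 258, 369 and 360.3 TPM in D2A1 3D, 124, 152 and 152 TPM in D2.OR 2D and 121, 171 and 173 TPM in D2.OR 3D. All D2.OR libraries were below all D2A1 libraries, with -0.56 (SE 0.18, adjusted p = 0.029) in 2D and -1.12 (SE 0.18, adjusted p = 0.000847) in 3D. The 2D call of Prdx4 was lost without batch 2 (adjusted p = 0.0960) or batch 3 (adjusted p = 0.0913). Prdx3, the mitochondrial form, was lower at -0.43 (SE 0.14, adjusted p = 0.0293) in 2D and -0.45 (SE 0.14, adjusted p = 0.0222) in 3D, and in 3D the call was lost without any 1 of the batches (adjusted p = 0.0594, 0.0570 and 0.0871). In 2D it was lost without batch 2 (adjusted p = 0.249) or batch 3 (adjusted p = 0.123). Prdx2 was called in 3D, at -0.56 (SE 0.11, adjusted p = 0.0029). Prdx1, at 571 to 1103 TPM, and Prdx6, at 119 to 396 TPM, were called in neither culture.

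Among the glutathione peroxidases, the abundant Gpx1 and Gpx4 differed less, while the secreted Gpx3 and the endoplasmic reticulum form Gpx8 were higher in D2.OR. Gpx3 (ENSMUSG00000018339.11, chr11:54902453-54910377, plus strand) had 0.07, 0.04 and 0.09 TPM in D2A1 2D, 0.08, 0.05 and 0.11 TPM in D2A1 3D, 2.29, 2.51 and 2.64 TPM in D2.OR 2D and 6.17, 8.25 and 17.0 TPM in D2.OR 3D. In D2A1 it rested on 2 to 7 counts per library, and in D2.OR on 115 to 959, so the groups were far apart. Gpx3 passed the filter only through D2.OR, so that its line difference is given as these counts and levels, and no fold change or test is read from it. Gpx8 (ENSMUSG00000021760.4, chr13:113042759-113046386, minus strand) had 84.5, 74.6 and 62.8 TPM in D2A1 2D, 77.2, 61.8 and 55.8 TPM in D2A1 3D, 222, 189 and 167 TPM in D2.OR 2D and 198, 181 and 179 TPM in D2.OR 3D. The groups did not overlap, and the difference was 1.52 (SE 0.09, adjusted p = 3.63e-06) in 2D and 1.50 (SE 0.09, adjusted p = 3.8e-06) in 3D. Gpx4, which reduces lipid peroxides in membranes, was higher in D2.OR in 3D, by 0.56 (SE 0.11, adjusted p = 0.00265), a call lost without batch 2 (adjusted p = 0.0802), and not called in 2D, at 0.28 (SE 0.11, adjusted p = 0.065). Gpx1, at 591 to 881 TPM, was called in neither culture. Gpx2 and Gpx7 were close to absent, with at most 2 counts and 1 count in any library.

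Among the cytosolic glutathione transferases, Gstt1 held the widest difference of the set. The theta class genes were far higher in D2.OR. Gstt1 (ENSMUSG00000001663.10, chr10:75783813-75798584, minus strand) had 0.72, 0.63 and 0.26 TPM in D2A1 2D, 0.45, 0.56 and 0.22 TPM in D2A1 3D, 166, 286 and 201 TPM in D2.OR 2D and 80.8, 96.9 and 116 TPM in D2.OR 3D. The lines were fully apart, with 2315 to 7732 counts in the D2.OR libraries and 4 to 15 in the D2A1 libraries. The log2 fold change was 9.20 (SE 0.40, adjusted p = 4.95e-07) in 2D and 8.06 (SE 0.38, adjusted p = 8.16e-07) in 3D. Gstt3 (ENSMUSG00000001665.11, chr10:75774115-75781414, minus strand), its neighbour on the chromosome, had 3.84, 3.18 and 4.55 TPM in D2A1 2D, 4.61, 3.65 and 2.57 TPM in D2A1 3D, 75.3, 76.7 and 62.5 TPM in D2.OR 2D and 63.0, 67.3 and 74.5 TPM in D2.OR 3D. The lines did not overlap here either, and differed by 4.35 (SE 0.21, adjusted p = 9.36e-07) in 2D and 4.24 (SE 0.21, adjusted p = 1.04e-06) in 3D. Gstt2, another theta gene that is no member of the set, had 0.32, 0.89 and 0.51 TPM in D2A1 2D, 0.79, 0.57 and 0.29 TPM in D2A1 3D, 37.8, 30.0 and 24.6 TPM in D2.OR 2D and 18.0, 24.6 and 27.4 TPM in D2.OR 3D, and its log2 fold change was 5.97 (SE 0.31, adjusted p = 1.23e-06) in 2D and 5.14 (SE 0.29, adjusted p = 2.14e-06) in 3D. RSEM divides reads that fit more than 1 of such related genes, so the split between them is less certain than their sum.

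The mu class genes went the other way where they were called. Gstm5 (ENSMUSG00000004032.10, chr3:107895821-107898686, plus strand) had 134, 152 and 164 TPM in D2A1 2D, 135, 133 and 120.3 TPM in D2A1 3D, 42.8, 30.2 and 26.5 TPM in D2.OR 2D and 44.5, 26.0 and 22.4 TPM in D2.OR 3D. The lowest D2A1 library stood at 120.3 TPM and the highest D2.OR library at 44.5 TPM, and the log2 fold change was -2.07 (SE 0.21, adjusted p = 6.79e-05) in 2D and -2.15 (SE 0.21, adjusted p = 5.01e-05) in 3D. Gstm2 (ENSMUSG00000040562.12, chr3:107981702-107986453, minus strand) had 210.0, 158 and 185 TPM in D2A1 2D, 217, 172 and 156 TPM in D2A1 3D, 118, 77.2 and 63.9 TPM in D2.OR 2D and 63.9, 36.7 and 45.2 TPM in D2.OR 3D. The D2.OR libraries were lower in both cultures, with -0.99 (SE 0.15, adjusted p = 0.000575) in 2D and -1.97 (SE 0.15, adjusted p = 1.17e-05) in 3D. Gstm1, the most abundant of the 3 at 188 to 672 TPM, overlapped between the lines and was not called, at -0.17 (SE 0.24, adjusted p = 0.588) in 2D and 0.49 (SE 0.24, adjusted p = 0.118) in 3D. These genes are also related in sequence and lie close together on chromosome 3, so the same caution on shared reads holds.

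Of the alpha class, Gsta4, which detoxifies products of lipid peroxidation, was high in all groups, and Gsta3 was nearly silent outside D2.OR 3D. Gsta4 (ENSMUSG00000032348.6, chr9:78182774-78209349, plus strand) had 177, 171 and 234 TPM in D2A1 2D, 295, 389 and 446 TPM in D2A1 3D, 306, 428 and 502 TPM in D2.OR 2D and 335, 375 and 539 TPM in D2.OR 3D. In 2D all D2.OR libraries were above all D2A1 libraries, by 1.20 (SE 0.12, adjusted p = 6.66e-05), and in 3D the groups overlapped, at 0.10 (SE 0.12, adjusted p = 0.517). Gsta3 (ENSMUSG00000025934.15, chr1:21240589-21265661, plus strand) had 0, 0.12 and 0.05 TPM in D2A1 2D, 0.13, 0.13 and 0.16 TPM in D2A1 3D, 0.12, 0.17 and 0.04 TPM in D2.OR 2D and 0.73, 3.24 and 1.20 TPM in D2.OR 3D. It rested on 0 to 8 counts in the other 9 libraries and on 21 to 125 in D2.OR 3D. Gsta3 passed the filter through D2.OR 3D alone, so that its call there is a description of that group and no size is read from it. That line call in 3D was also lost without batch 2 (adjusted p = 0.0526). In 2D Gsta3 was not called (adjusted p = 0.202). Gstp1, the pi class transferase, stood at 464 to 699 TPM in all libraries, and its small difference of -0.23 (SE 0.08, adjusted p = 0.0407) in 2D was lost in 15 of 25 alternative fits, without batch 2 (adjusted p = 0.285) and without batch 3 (adjusted p = 0.202) among them. In 3D the difference of Gstp1 was -0.10 (SE 0.08, adjusted p = 0.355).

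**Figure D3:**
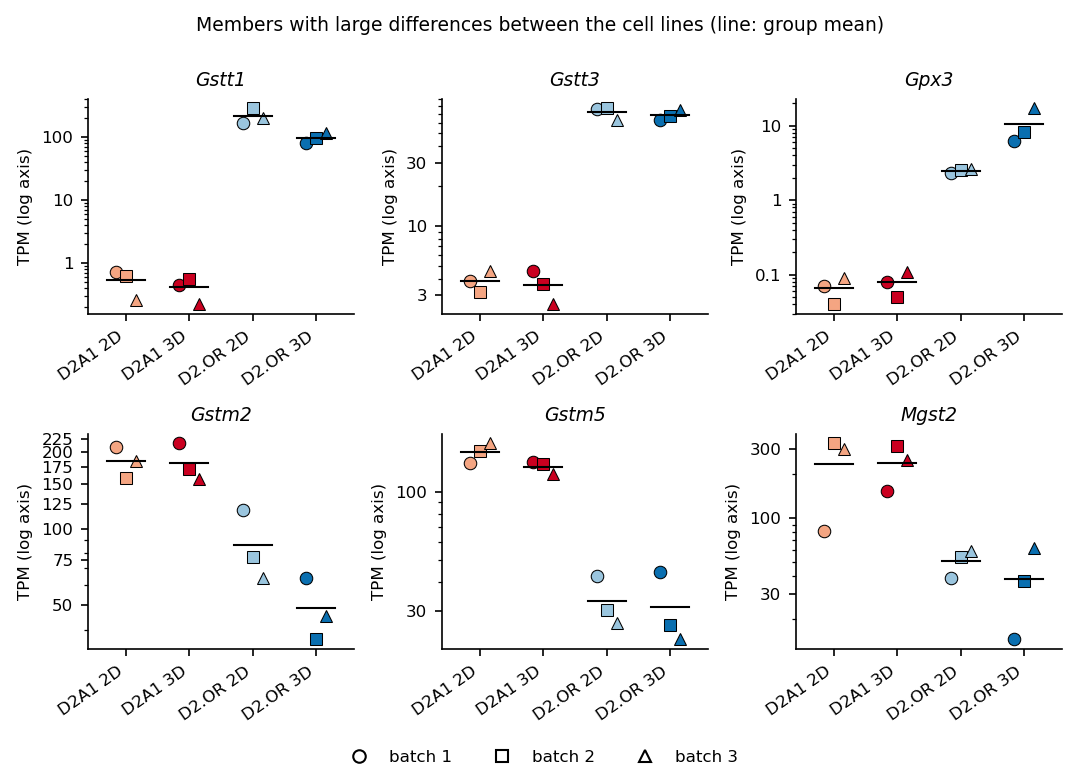
TPM of Gstt1, Gstt3, Gpx3, Gstm2, Gstm5 and Mgst2 in each of the 12 libraries on log axes, with a line at each group mean and a symbol for each batch. Gstt1, Gstt3 and Gpx3 are higher, and Gstm2, Gstm5 and Mgst2 lower, in each D2.OR library than in each D2A1 library of the same culture.

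The 3 microsomal transferases, membrane enzymes that also act on lipid peroxides and leukotrienes, split as well. Mgst2 (ENSMUSG00000074604.9, chr3:51660360-51682677, plus strand) had 80.8, 328 and 300.0 TPM in D2A1 2D, 153, 316 and 253 TPM in D2A1 3D, 38.6, 54.1 and 59.2 TPM in D2.OR 2D and 14.6, 36.7 and 61.7 TPM in D2.OR 3D. Batch 1 was the lowest library in each group, yet the D2.OR libraries were all below the D2A1 libraries, with -1.90 (SE 0.32, adjusted p = 0.00115) in 2D and -2.80 (SE 0.33, adjusted p = 0.000139) in 3D. Mgst3 (ENSMUSG00000026688.5, chr1:167371966-167393841, minus strand) had 30.4, 10.3 and 20.0 TPM in D2A1 2D, 35.3, 14.7 and 12.5 TPM in D2A1 3D, 52.6, 39.9 and 32.0 TPM in D2.OR 2D and 47.9, 54.2 and 61.0 TPM in D2.OR 3D. It was higher in every D2.OR library, by 1.24 (SE 0.35, adjusted p = 0.0166) in 2D and 1.53 (SE 0.35, adjusted p = 0.00558) in 3D. The 2D call of Mgst3 was lost without batch 2 (adjusted p = 0.171), and the 3D call without batch 2 (adjusted p = 0.0550) or batch 3 (adjusted p = 0.0806). Mgst1, at 151 to 662 TPM, was lowest in batch 1 in each group, overlapped between the lines and was not called.

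Superoxide dismutases, which turn superoxide into hydrogen peroxide, were lower in D2.OR where they were called, while catalase, which breaks hydrogen peroxide down, was higher. Sod1 (ENSMUSG00000022982.9, chr16:90220742-90226322, plus strand), the cytosolic form, had 863, 606 and 730.0 TPM in D2A1 2D, 1072, 1042 and 1194 TPM in D2A1 3D, 365, 336 and 345 TPM in D2.OR 2D and 367, 448 and 478 TPM in D2.OR 3D. All D2.OR libraries were below all D2A1 libraries, with -0.93 (SE 0.16, adjusted p = 0.00122) in 2D and -1.40 (SE 0.16, adjusted p = 0.000118) in 3D. Sod2 (ENSMUSG00000006818.4, chr17:13007839-13018119, plus strand), the mitochondrial form, had 35.2, 36.5 and 37.7 TPM in D2A1 2D, 40.8, 94.3 and 86.3 TPM in D2A1 3D, 24.6, 26.6 and 27.3 TPM in D2.OR 2D and 31.6, 39.2 and 40.6 TPM in D2.OR 3D. In 2D the groups were apart but the difference was not called, at -0.35 (SE 0.22, adjusted p = 0.214), and in 3D it was called, at -0.98 (SE 0.22, adjusted p = 0.0051). That 3D call was lost without batch 2 (adjusted p = 0.0813) or batch 3 (adjusted p = 0.0719). Sod3, the secreted form, ranged from 5.81 to 48.0 TPM, was lowest in batch 1 in each group, and was not called in either culture. Cat (ENSMUSG00000027187.10, chr2:103453849-103485160, minus strand) had 42.1, 34.2 and 40.0 TPM in D2A1 2D, 45.6, 34.6 and 36.6 TPM in D2A1 3D, 79.6, 54.8 and 54.9 TPM in D2.OR 2D and 79.4, 119 and 100.2 TPM in D2.OR 3D. The D2.OR libraries were higher in both cultures, by 0.82 (SE 0.20, adjusted p = 0.00909) in 2D and 1.38 (SE 0.21, adjusted p = 0.000545) in 3D, and the 2D call was lost without batch 2 (adjusted p = 0.0558) or batch 3 (adjusted p = 0.0535). Of the enzymes that supply NADPH, G6pdx (ENSMUSG00000031400.10, chrX:74409483-74429194, minus strand), glucose-6-phosphate dehydrogenase, had 130.1, 185 and 211 TPM in D2A1 2D, 167, 163 and 186 TPM in D2A1 3D, 91.9, 104 and 112 TPM in D2.OR 2D and 87.4, 109 and 126 TPM in D2.OR 3D. It was lower in every D2.OR library, with -0.64 (SE 0.11, adjusted p = 0.00134) in 2D, where the call was lost without batch 2 (adjusted p = 0.0510), and -0.75 (SE 0.11, adjusted p = 0.000491) in 3D. Pgd, the next enzyme of the pentose phosphate pathway, stood at 139 to 315 TPM and was called in neither culture.

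Of the AhR genes, the members Ahr and Cyp1b1 were higher in D2.OR. Ahr (ENSMUSG00000019256.17, chr12:35497974-35535038, minus strand) had 18.1, 29.1 and 25.9 TPM in D2A1 2D, 14.1, 16.4 and 16.5 TPM in D2A1 3D, 56.0, 65.2 and 42.3 TPM in D2.OR 2D and 99.5, 47.0 and 42.9 TPM in D2.OR 3D. All D2.OR libraries were above all D2A1 libraries, and batch 1 of D2.OR 3D stood above the others of its group. The log2 fold change was 1.29 (SE 0.31, adjusted p = 0.00817) in 2D, lost without batch 2 (adjusted p = 0.0725), and 1.91 (SE 0.32, adjusted p = 0.00104) in 3D. Cyp1b1 (ENSMUSG00000024087.3, chr17:79706953-79715041, minus strand), a cytochrome P450 and AhR target, had 131, 151 and 209 TPM in D2A1 2D, 129.7, 94.5 and 96.2 TPM in D2A1 3D, 220.3, 338 and 266 TPM in D2.OR 2D and 627, 568 and 552 TPM in D2.OR 3D. In 3D the D2.OR libraries were far above the D2A1 libraries, whereas in 2D the groups were apart by little. The log2 fold change was 0.88 (SE 0.20, adjusted p = 0.00628) in 2D, lost without batch 2 (adjusted p = 0.115), and 2.42 (SE 0.21, adjusted p = 2.49e-05) in 3D. Cyp1a1 (ENSMUSG00000032315.6, chr9:57687928-57703824, plus strand), the classic AhR target, had 0.06, 0.02 and 0 TPM in D2A1 2D, 0.02, 0.08 and 0.15 TPM in D2A1 3D, 0, 0 and 0.03 TPM in D2.OR 2D and 0, 0.04 and 0.01 TPM in D2.OR 3D. It had at most 16 counts in any library and did not pass the filter, so that no difference was tested in the main fit. Ahrr, the repressor of AhR and itself a target, is no member of the set. It had 0, 0 and 0 TPM in D2A1 2D, 0.01, 0 and 0 TPM in D2A1 3D, 0.66, 0.27 and 0.30 TPM in D2.OR 2D and 1.69, 1.29 and 1.85 TPM in D2.OR 3D, so that D2.OR exceeded D2A1 in Ahrr at least 21.8-fold in 2D and at least 81.4-fold in 3D, set against a floor of 3 counts per D2A1 library. Tiparp, another AhR target outside the set, named after its values were seen, was lower in D2.OR, with -1.39 (SE 0.26, adjusted p = 0.00221) in 2D and -1.19 (SE 0.26, adjusted p = 0.00418) in 3D.

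The second comparison asked what 3D culture changed within each line. The same 12 libraries serve the line and the culture comparisons, so their values are not independent of those above. In D2A1, 8 of the 39 genes were called (20.5%), compared with 3.48% of all genes, and all 8 were higher in 3D (1.37% of all genes were). The median log2 fold change of the 39 genes was 0.22, compared with 0.004 over all genes. The 8 genes were Nqo1, the modifier subunit of glutathione synthesis Gclm, Gsr, Txn1, Gpx1, Gsta4, Sod1 and Sod2. In each of them all 3 libraries of D2A1 3D were above all 3 of D2A1 2D. Such a separation is not particular to the called genes, since 14 of the 39 genes did not overlap between these groups. The share over all genes was not counted. Gpx1, not given above, had 790.3, 641 and 648 TPM in D2A1 2D, 881, 867 and 848 TPM in D2A1 3D, 646, 591 and 591 TPM in D2.OR 2D and 782, 743 and 750.4 TPM in D2.OR 3D.

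The calls of Gclm, at 1.06 (SE 0.12, adjusted p = 0.00955), and Gsta4, at 1.06 (SE 0.12, adjusted p = 0.0118), had the smallest adjusted p. The other 6 lay close to the threshold. Nqo1 differed by 1.55 (SE 0.33, adjusted p = 0.0453), Sod2 by 1.07 (SE 0.22, adjusted p = 0.0453) and Gsr by 0.84 (SE 0.18, adjusted p = 0.0453). For Txn1 the difference was 0.71 (SE 0.15, adjusted p = 0.0473), for Sod1 0.71 (SE 0.16, adjusted p = 0.0473) and for Gpx1 0.44 (SE 0.10, adjusted p = 0.0473). Within batches, the 3D minus 2D difference of Nqo1 in log2 CPM was 1.67, 1.62 and 1.41. For Sod2 it was 0.23, 1.52 and 1.34, and for Gsr 0.20, 1.06 and 1.23, smallest in batch 1 in both. For comparison, Nfe2l2 differed by -0.10 (adjusted p = 0.758) and Keap1 by 0.26 (adjusted p = 0.12) between the cultures of D2A1, and neither was called. Genes that just missed the threshold were Srxn1, at 0.60 (adjusted p = 0.0513), and Prdx1, at 0.57 (adjusted p = 0.0539).

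**Figure D4:**
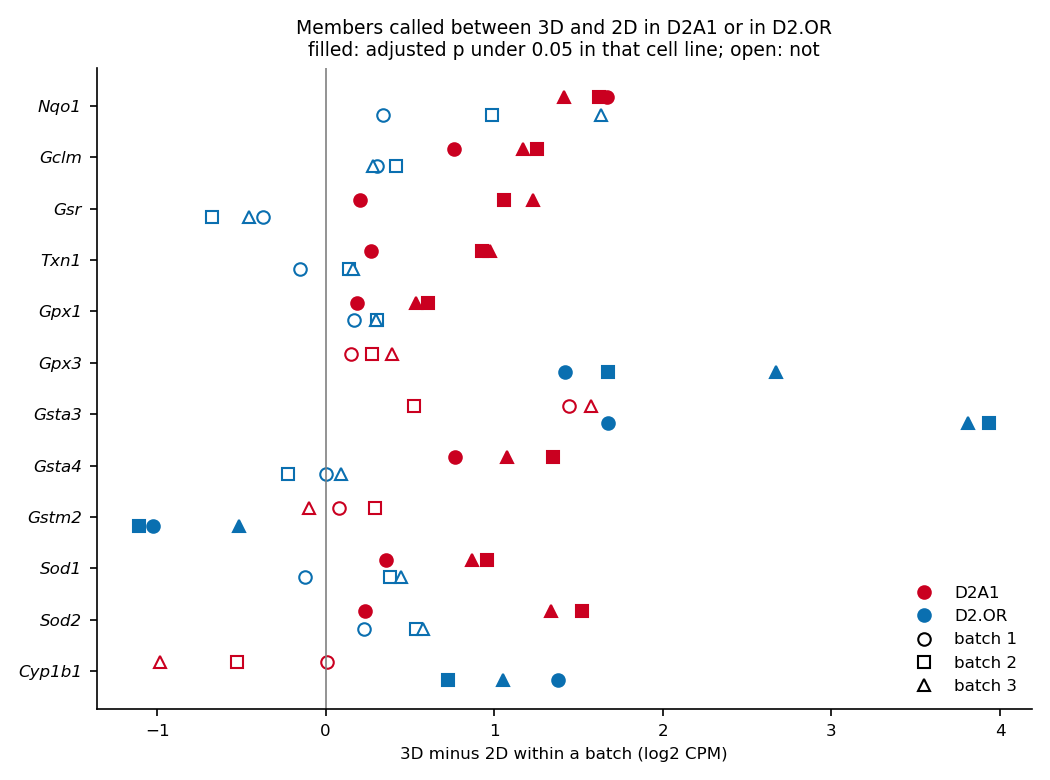
Difference between 3D and 2D in each batch, in log2 CPM, for the 12 genes called in D2A1 (red) or D2.OR (blue), with a symbol for each batch, filled where the gene was called at an adjusted p under 0.05 in that line. All red filled points lie above 0, and batch 1 is nearest to 0 for every gene called in D2A1 except Nqo1.

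The number of D2A1 calls depended on which libraries were fitted. It was 18 without batch 1 (15 higher and 3 lower, when 36.3% of all genes were called). All 8 calls were lost without batch 2 and without batch 3, when no gene at all was called. Leaving out single D2A1 2D libraries gave 14, 0 and 1 calls for batches 1, 2 and 3 (30.3%, 0% and 0.121% of all genes), and single D2A1 3D libraries gave 11, 0 and 0 (12.8%, 0% and 0% of all genes). Leaving out single D2.OR 2D libraries, which are in the same fit, gave 4, 2 and 2 (2.71%, 0.433% and 0.427% of all genes), and D2.OR 3D libraries 7, 2 and 2 (2.08%, 0.609% and 0.528%). Without the block for batch the count was 1 (0.309% of all genes), with only the 6 D2A1 libraries it was 1 of 37 (0.0981% of all genes), and with DESeq2 it was 13 of 42 (21.5% of all genes). All 13 of the DESeq2 calls were higher in 3D.

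In D2.OR, 4 of the 39 genes were called between 3D and 2D (10.3%), compared with 1.62% of all genes, and the median log2 fold change was 0.15, compared with 0.002 over all genes. Gpx3, Gsta3 and Cyp1b1 were higher in 3D and Gstm2 was lower. Gpx3 rose from between 2.29 and 2.64 TPM in 2D to between 6.17 and 17.0 TPM in 3D, without overlap, by a log2 fold change of 1.94 (SE 0.27, adjusted p = 0.0157). Cyp1b1 rose from between 220 and 338 TPM to between 552 and 627 TPM, by 1.04 (SE 0.20, adjusted p = 0.0446), and was then the fourth most abundant of the 42 genes in D2.OR 3D. Gsta3 had at most 0.17 TPM in 2D and between 0.73 and 3.24 TPM in 3D, and was called (adjusted p = 0.0341), but since it passed the filter only through D2.OR 3D, this call supports nothing. Without it the count is 3 of 38 genes. Gstm2 fell in each batch, by 1.03, 1.11 and 0.52 in log2 CPM, and the fitted value was -0.89 (SE 0.15, adjusted p = 0.0294), although its TPM groups touched at 63.9 TPM.

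Nqo1 in D2.OR was higher in 3D in each batch, by 0.34, 0.98 and 1.63 in log2 CPM, but the difference was not called, at 0.90 (SE 0.33, adjusted p = 0.197). Gstt1 was lower in every 3D library and narrowly missed the threshold, at -1.20 (SE 0.26, adjusted p = 0.0582). The adipocyte markers Plin1 and Cfd were also higher in D2.OR 3D, with Plin1 at 6.33, 75.0 and 21.5 TPM and Cfd at 2.98, 99.1 and 10.6 TPM, compared with 0.15, 1.36 and 0.18 and 0.09, 4.20 and 0.72 TPM in D2.OR 2D. Gsta3 and both markers were highest in the same library, batch 2, and Gpx3 was highest in batch 3, and the part of these cells or transcripts in the result was not tested.

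The count in D2.OR also changed with the libraries fitted. Without batch 1 the count was 18 (14 higher and 4 lower, when 8.38% of all genes were called). All 4 calls were lost without batch 2 and without batch 3, when 0% and 0.00589% of all genes were called. Leaving out single D2.OR 2D libraries gave 4, 0 and 0 calls for batches 1, 2 and 3 (1.37%, 0.0288% and 0.0461% of all genes), and single D2.OR 3D libraries gave 3, 0 and 0 (1.61%, 0.0116% and 0.180%). Single D2A1 2D libraries left 6, 1 and 6 (3.67%, 0.784% and 1.73%), and single D2A1 3D libraries 6, 2 and 3 (3.03%, 0.596% and 0.968%). The count was 0 without the block for batch (0.119% of all genes), 1 of 36 with at least 10 counts required in every library (1.23% of all genes) and 7 of 42 with DESeq2 (7.35% of all genes).

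The last comparison asked whether 3D culture acted differently in the lines, as an interaction of line and culture. With edgeR none of the 39 genes was called, compared with 0.0238% of all genes (4 genes), and 8 of the 39 had an unadjusted p under 0.05, next to 2997 of all 16823 genes, which is a like share. These were Gsta4, at -1.10 (SE 0.17, adjusted p = 0.0716), Gsr, at -1.34 (SE 0.25, adjusted p = 0.0892), Cyp1b1, at 1.54 (SE 0.29, adjusted p = 0.0892), Gstm2, at -0.98 (SE 0.21, adjusted p = 0.103), Gclm, at -0.72 (SE 0.16, adjusted p = 0.11), Txn1, Prdx2 and Gpx3. Gpx3 is among the 8, but it passed the filter only through D2.OR and had 2 to 7 counts per D2A1 library. Its place in the count is therefore a description. A negative value means that the 3D minus 2D difference was lower in D2.OR than in D2A1. For Gsr the change was 0.84 (adjusted p = 0.0453) in D2A1 and -0.50 (adjusted p = 0.181) in D2.OR, with opposite signs in all 3 batches. For Cyp1b1 it was -0.51 (adjusted p = 0.129) in D2A1 and 1.04 (adjusted p = 0.0446) in D2.OR.

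DESeq2's likelihood-ratio test called 5 of 42 genes in the interaction, when 5.81% of all genes were called. These were Gsta4 (adjusted p = 9.69e-06), Cyp1b1 (0.000205), Gsr (0.000376), Gstm2 (0.00711) and Gclm (0.00879). Without a filter on low counts edgeR called 3 of 42, Gsta4, Gsr and Cyp1b1, when 0.322% of all genes were called. Without batch 1 it called 13 of 39, when 17.8% of all genes were called. Without D2A1 2D of batch 1 it called 10 (14.5% of all genes), and without D2A1 3D of batch 1 it called 6 (2.94% of all genes).

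Other genes of these pathways, 81 in 7 lists, were counted beside the set, and 71 passed the filter. Between the lines, 40 of the 71 were called in 2D (20 higher and 20 lower, 56.3%), and 39 in 3D (19 higher and 20 lower, 54.9%), close to the shares of 49.8% and 53.8% over all genes. Of 16 other NRF2 targets and partners, 5 were higher and 6 lower in D2.OR in 2D. Each value here is a log2 fold change, D2.OR minus D2A1. The export pump Abcc4 was lower at -6.74 (adjusted p = 6.02e-06), and Mafk, a small MAF protein that pairs with NRF2, was higher by 1.38 (adjusted p = 5.26e-05). Of 17 other glutathione enzymes tested, 4 were higher, Ggt5 among them, and 4 lower, with glutaredoxin Glrx higher by 2.16 (adjusted p = 1.72e-05) and Gstcd lower at -1.95 (adjusted p = 2.69e-05). Among 11 other thioredoxin system genes, 3 were higher and 5 lower, and the methionine sulfoxide reductases went apart, with Msrb3 higher by 2.34 (adjusted p = 1.98e-06) and Msrb2 lower at -1.46 (adjusted p = 0.000284).

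Of 5 other AhR pathway genes tested, 2 were higher and 2 lower in 2D. Ahrr was higher, which is a description because it passed the filter through D2.OR alone. Arnt2, a partner protein of the same family as ARNT, was lower at -2.78 (adjusted p = 2.83e-05). Of 10 other sources of NADPH, 1 was higher and 2 lower, with the isocitrate dehydrogenases Idh1 higher by 1.28 (adjusted p = 0.00228) and Idh2 lower at -0.70 (adjusted p = 0.0181). The NADPH oxidases, which make superoxide, were at most 8.35 TPM in sum, and of the 5 tested 3 were higher and 1 lower, with the subunit Ncf1 lower at -3.27 (adjusted p = 0.00157). Of 7 further transferase paralogs tested, 2 were higher and none lower, Gstt2 and Gsta2, the latter by 2.18 (adjusted p = 0.012). In 3D, 1 was higher and 2 were lower, and Gsta2 was on the other side, at -2.27 (adjusted p = 0.00329), with Gsta1 at -2.44 (adjusted p = 0.00435).

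Between cultures, none of the 71 genes was called in D2.OR (1.62% of all genes were), and 5 were called in D2A1 (7.0%, compared with 3.48% of all genes), of which 4 were higher in 3D. Of these, 4 are named here, chosen after their values were seen. The alpha class transferase Gsta1 had 7.03, 12.1 and 13.6 TPM in D2A1 2D and 24.3, 135 and 175 TPM in D2A1 3D, and stood between 11.4 and 32.8 TPM in the 6 D2.OR libraries. It was higher in each D2A1 3D library than in each D2A1 2D library, by 3.33 (SE 0.56, adjusted p = 0.0321). Its close relative Gsta2, at 0.16, 0.45 and 0.23 TPM in D2A1 2D and 1.19, 4.23 and 5.19 TPM in D2A1 3D, differed by 4.09 (SE 0.55, adjusted p = 0.0193). Gstk1 was higher by 1.16 (adjusted p = 0.0466), and Sesn3, a sestrin, was lower at -1.07 (adjusted p = 0.0442). None of the 71 genes was called in the interaction.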

How the data were processed

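RNA of the 12 libraries was sequenced, and reads were trimmed with Trimmomatic (0.32), checked with FastQC (0.11.4), aligned with STAR (2.5.3) to GRCm38 and quantified by RSEM (1.3.0), as far as the study's methods and the submitters' processing notes state. The authors deposited RSEM expected counts per gene, of which 10.7% to 11.8% per library were not whole because RSEM divides reads shared by related genes. TPM values, which the authors also deposited, are scaled to gene length and library total and were used for levels. The deposited FPKM values were not used.

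Expected counts were rounded, and genes with low counts were dropped with filterByExpr, which left 16823 genes. After TMM normalization, edgeR (4.0.16, in R 4.3.3) quasi-likelihood F tests were run on all 12 libraries with terms for group and batch. P values were adjusted by Benjamini-Hochberg over all genes tested, and replicates varied by 21.2% in edgeR's common estimate. The steps were tested on simulated data with 200 changed genes. The members and lists were chosen with earlier results of these data known.

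Values in each library are given for Nfe2l2, Keap1, Nqo1, Ahr, Cyp1a1 and Cyp1b1, for the 6 largest rises and 6 largest falls called between the lines in 2D, the 3 further ones in each direction in 3D, and the members called between cultures (the 6 with the smallest p if over 6). Some further members are shown beside their relatives. Other pathway genes are counted by list, with the 2 of smallest p in 2D named. A gene that this rule would name is not reported here.

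The labels tie each replicate number to a batch, so the batch was a block. Deviations from the group means correlated from 0.076 to 0.511 (median 0.267) over 18 same-number pairs and from -0.432 to 0.296 (median -0.195) over 36 different-number pairs.

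The alternatives were no block, DESeq2 (1.42.0), limma (3.58.1) on log2(TPM + 1) and log2(TPM + 0.1), DESeq2 size factors, library totals alone, no filter, a minimum of 10 counts per library, a fit to the 6 libraries compared alone, Bonferroni adjustment, and leaving out each batch or library. Within-batch differences are in log2 CPM with a prior count of 2.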

Additional observations from a re-analysis of the deposited data

How the results depend on the processing

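No call of a gene turned its direction under any alternative. The counts below are of 39 genes, except 42 with DESeq2 or without a filter, 36 with at least 10 counts in every library and 37 with only the 6 D2A1 libraries. Between the lines, the 2D count of 25 was 12 to 27 when a batch or library was left out (24.9% of all genes at the lowest, and 53.8% and 49.2% at the highest, which 2 fits gave), 22 without the block for batch (43.9% of all genes) and 5 with Bonferroni adjustment (5.3% of all genes). The 3D count of 27 was 18 to 32 with a batch or library left out (31.0% and 56.9% of all genes), 25 without the block (47.8%) and 7 with Bonferroni adjustment (5.78%). Gpx3, which passed the filter only through D2.OR, is among these, and without it and Gsta3 the Bonferroni counts were 4 and 6 of 37. Between the cultures of D2.OR, the count of 4 was 0 to 18 with a batch or library left out. Of all genes, 8.38% were called where it was 18, and 0% to 0.18% where it was 0. It was 0 without the block (0.119% of all genes), 7 with DESeq2 (7.35%), 1 with at least 10 counts in every library (1.23%) and 0 with Bonferroni adjustment (0.0416%). Between the cultures of D2A1, the count of 8 was 0 to 18 with a batch or library left out. Of all genes, 36.3% were called where it was 18, and 0% where it was 0. It was 1 without the block (0.309% of all genes), 13 with DESeq2 (21.5%), 1 with only the 6 libraries compared (0.0981%) and 0 with Bonferroni adjustment (0.0297%). For the interaction, the count of 0 was 0 to 13 with a batch or library left out. Of all genes, 17.8% were called where it was 13, and 0% to 0.237% where it was 0. It was 0 without the block (0% of all genes), 5 with DESeq2 (5.81%) and 3 without a filter (0.322%). The cause of these shifts was not tested, except that leaving out libraries also leaves fewer samples.

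Across the genes called, 526 of 623 values under alternatives kept their call in the 2D line comparison, 612 of 672 in the 3D one, 55 of 98 between the cultures of D2.OR and 97 of 200 between those of D2A1. These tallies hold Gpx3, kept in 24 of 24 in each line comparison. They also hold Gsta3, kept in 22 of 24 between the lines in 3D and in 14 of 24 between the cultures of D2.OR. These calls depend on the filter, so that their share of the tallies supports nothing. Scaled by library total alone, the median log2 fold change of all genes between the lines was -0.167 in 2D and -0.1 in 3D, next to -0.003 and 0.001 with TMM. Depth limits Gpx2, Gpx7, Cyp1a1, Gsta3 and, in D2A1, Gpx3 and Gstt1, which rest on few counts.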

Other observations

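Summed levels by role are given as values without a test, in TPM. The 4 genes for superoxide dismutases and catalase summed to 700 to 947 TPM in D2A1 2D, 1168 to 1354 TPM in D2A1 3D, 435 to 475 TPM in D2.OR 2D and 501 to 650 TPM in D2.OR 3D. The 3 genes of glutathione synthesis summed to 202 to 274 TPM in D2A1 2D, 279 to 355 TPM in D2A1 3D, 123 to 147 TPM in D2.OR 2D and 171 to 185 TPM in D2.OR 3D. For both roles each D2.OR library lay below each D2A1 library. The AhR genes, almost all of it Cyp1b1 and Ahr, summed to 595 to 726 TPM in D2.OR 3D and to 111 to 403 TPM in the other 9 libraries. Sod1 was the most abundant of the 42 genes in D2A1 in both cultures, with a mean of 733 TPM in 2D and 1103 TPM in 3D, and Prdx1 was the most abundant in D2.OR, with 667 and 895 TPM.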
